A study of Mus musculus with 14 samples.

Results

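Hepatocyte-derived ductal cells from chronically injured mouse liver were set against both populations that flank them, to describe the genes that were not intermediate. The samples were the 5 libraries of hepatocyte-derived ductal cells, of 14 in all, and the other 9 were 5 libraries of cholangiocyte-derived ductal cells and 4 of hepatocytes. The mice were chimeric adult C57BL/6 animals in which a red fluorescent protein marked the mature hepatocytes. Every group had received 0.1% DDC, a porphyrinogenic toxicant that causes cholestatic injury, for 5 to 8 weeks. Both ductal groups were sorted as positive for the ductal surface antigen MIC1-1C3, negative for CD11b, CD26, CD31 and CD45 and low in side scatter. Red (mTomato-positive) cells of that gate are called donor, hepatocyte-derived cells in the labels, and unmarked cells host, cholangiocyte-derived cells. For hepatocytes the labels give no gate, the series text counts 3 samples, and all 4 columns of the table were used. No label gives donor or host genotypes, exact ages or numbers of mice, so lineage cannot be told apart from donor or host origin. Nothing states that libraries with different numbers are different mice, so a p-value here measures spread among these libraries, part of which may be technical.

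Ductal reaction is the spread of small bile-duct-like cells in injured liver. Some of these cells come from pre-existing biliary epithelium, and in cholestatic injury others come from hepatocytes that take on biliary genes, a change called ductal metaplasia. A cell on the way from hepatocyte to duct would be placed between the flanking populations for most genes, and a gene whose level lies outside both is not described by such a mixture.

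Levels were RPKM, read counts scaled for transcript length and library size. Estimated depth was 17400000 to 26400000 reads per library. Sorted identity followed the labels: Sox9, a biliary transcription factor, stood at 69 to 107 RPKM in hepatocyte-derived ductal cells against 5.04 to 13.8 in hepatocytes, and albumin (Alb) at 3152 to 6810.3 against 29747 to 47947. The ductal keratin Krt19 was at 23.4 to 81.8 RPKM, below the 588 to 743 of cholangiocyte-derived cells, and Epcam, an epithelial adhesion molecule, was at 60.8 to 136 against 501 to 633. Transcripts of macrophages, summed over 13 markers, were at 55.5 to 180 RPKM in hepatocyte-derived libraries, 64.7 to 424 in cholangiocyte-derived ones and 62.2 to 1434 in hepatocytes. Hepatocyte library 118 and cholangiocyte-derived libraries 118 and 220 were highest in macrophage and endothelial markers, and both libraries numbered 219 were lowest within their groups. Counts without those 3 libraries, or without both numbered 219, are given beside some of the results they touch.

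Of 12638 genes tested, 7677 (60.7%) had a hepatocyte-derived mean between the other 2 group means, 3948 above both and 1013 below both. All 5 hepatocyte-derived libraries exceeded all 9 others for 724 genes (5.73% of those tested) and lay under all 9 for 80 (0.633%). A second criterion asked for a difference from each of the other populations in the same direction by limma on log2(RPKM + 1), with the larger of both p-values adjusted over all genes and called under 0.05. It called 467 genes higher (3.7%) and 62 lower (0.491%). Both criteria together left 420 genes above (3.32%) and 50 below (0.396%), called outside genes here. Both differences share the hepatocyte-derived libraries, so they are not separate evidence. In these bulk samples fewer cells of a type and less RNA per cell cannot be told apart.

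**Figure D1:**
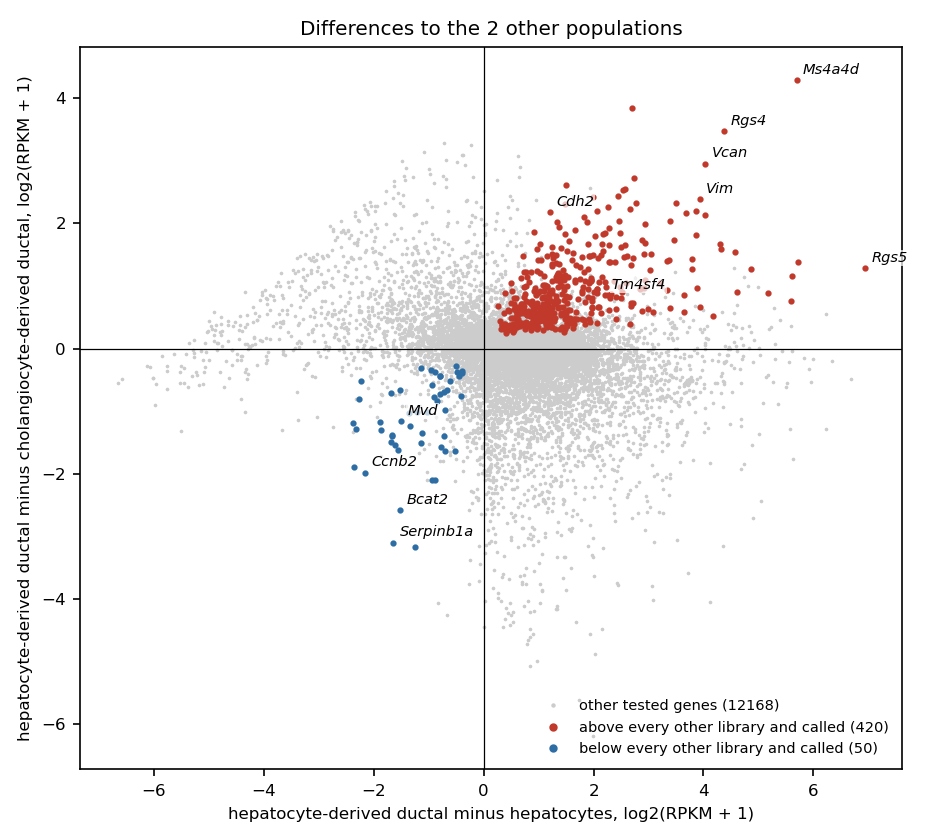
Difference in mean log2(RPKM + 1) of hepatocyte-derived ductal cells to hepatocytes (horizontal) and to cholangiocyte-derived ductal cells (vertical), 1 point per tested gene. The 420 genes above every other library and called by limma lie at the upper right, and the 50 below lie at the lower left.

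The size of these groups depended on scaling. The median difference of all tested genes was -0.03 (log2) to cholangiocyte-derived cells but 0.67 to hepatocytes. Rescaling libraries by median ratios moved the latter to 0.03 and gave 259 genes above and 131 below, and quantile normalization gave 377 and 172. Of the 420 genes above, 185 stayed outside under both scalings, and 41 of the 50 below did so. Without hepatocyte library 118 the counts were 595 and 77, and without the 3 libraries high in transcripts of other cells 383 and 56, of which 306 and 39 were among the 420 and the 50. The plain contrast with the average of both group means, for which limma called 6863 genes higher (54.3%) and 1749 lower (13.8%), also turned with scaling, to 3276 and 3853 after rescaling.

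Outside genes above were nearer to cholangiocyte-derived cells for 352 of 420 and nearer to hepatocytes for 68. For a gene above both populations, the nearer is the one with the higher level. By limma cholangiocyte-derived cells were higher than hepatocytes for 62.4% of the 420, against 67.1% of all tested genes. Hepatocytes were higher for 5.95%, against 17.4%. The median difference of the 420 genes to the nearer population was 0.73 (log2), and 127 exceeded 2-fold. The other 2 populations did not differ from each other by limma for 133 of the 420 (31.7%), against 15.6% of all tested genes, and for 24 of the 50 below (48%). The criteria themselves favour genes whose other 2 populations lie close together, so no conclusion is drawn from these shares. For 22 genes the lowest hepatocyte-derived library was at least 2-fold above the highest other library on log2(RPKM + 1), and for no gene was the reverse gap as wide. Besides genes described below, those 22 included Etv4, an ETS transcription factor, Zfp57, a zinc finger protein that maintains genomic imprints, Msc (musculin), a basic helix-loop-helix factor, and Mst1r, the receptor tyrosine kinase RON, named after their values were seen.

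Ms4a4d, a 4-pass membrane protein of the MS4A family (NM_025658, mm9 chr19:11611339-11632956, plus strand), had 129, 70, 75.2, 68.8 and 71.5 RPKM in hepatocyte-derived libraries 219, 220, 225, 248 and 611, an order kept below. In cholangiocyte-derived libraries 118, 219, 220, 225 and 611 it had 3.48, 12.5, 5.03, 1.15 and 0.55, and in hepatocyte libraries 118, 225, 248 and 611 it had 2.6, 0.08, 0.33 and 0.18. The lowest hepatocyte-derived library was thus far above cholangiocyte-derived library 219, the highest of the others. The ratio of means was 18.3 to cholangiocyte-derived cells, or 32.5 without library 219, and 104 to hepatocytes, or 421 without library 118, and log2 differences were 4.30 ± 0.50 and 5.69 ± 0.53 (SE, limma adjusted p = 1.44e-04 for both).

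Rgs4, which speeds GTP hydrolysis by G protein alpha subunits (NM_009062, mm9 chr1:171671608-171677773, minus strand), was at 18.2, 23.9, 16.1, 19.1 and 58.7 RPKM in hepatocyte-derived cells, 0.57, 2.19, 1.31, 1.17 and 1.26 in cholangiocyte-derived cells and 0.35, 0.04, 0.12 and 0.36 in hepatocytes. Library 611 was highest, and the groups did not overlap (log2 differences 3.48 and 4.37, limma adjusted p = 1.42e-05). Its relative Rgs5, on the same chromosome (NM_009063, mm9 chr1:171585632-171623657, plus strand), had 1453, 953, 1480.2, 1613 and 1494 RPKM against 509, 844, 481, 583 and 481 and 21.8, 7.67, 11.8 and 5.32. Library 220 was well under the other 4 hepatocyte-derived libraries and closest to cholangiocyte-derived library 219, and the difference to that group was 1.28 ± 0.29. The call of Rgs5 for a difference from both populations (limma adjusted p = 0.0175) was lost when hepatocyte-derived library 248 or cholangiocyte-derived library 118 or 220 was left out (0.0514 to 0.0517). Rgs5 is also a pericyte marker. The other 11 stellate and fibroblast markers, among them the collagens Col1a1 and Col3a1, summed to 10.2 to 31.4 RPKM in hepatocyte-derived libraries against 37.4 to 504 in cholangiocyte-derived ones. Of 10 RGS genes tested, these 2 were outside above (20%, against 3.32% of all genes), or 1 under quantile normalization.

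Vcan, the proteoglycan versican (NM_019389, mm9 chr13:89794915-89882117, minus strand), was at 10.7, 9.56, 30.4, 33.4 and 14.6 RPKM, against 1.54, 2.45, 1.65, 1.19 and 0.44 and 0.14, 0.09, 0.17 and 0.08. Libraries 225 and 248 were highest, and even the lowest, 220, exceeded every other library (limma adjusted p = 7.34e-05). Col12a1, a fibril-associated collagen, had 13.6, 11, 15.1, 12.6 and 9.78 RPKM against 1.13, 2.34, 1.26, 0.49 and 0.32 and 0.66, 1.23, 1.27 and 0.89. Both other groups stood near 1 RPKM here, and the ratio of means was 11.2 to the former and 12.3 to the latter (limma adjusted p = 1.42e-05). Enzymes that process collagen were also outside: Adamts14, which trims procollagen, had 9.65, 6.67, 10.3, 12.2 and 10 RPKM against 0.76, 2.53, 1.22, 0.81 and 0.66 and 0.18, 0.4, 0.79 and 0.98. Loxl2, a lysyl oxidase that crosslinks matrix, had 38.3, 29.7, 32.9, 25.8 and 23.5 against 8.02, 9.58, 9.11, 2.48 and 1.52 and 2.65, 1.66, 2.15 and 0.73 (limma adjusted p = 2.21e-05 and 0.00169). In both, no hepatocyte-derived library reached down to the other groups. These 4 matrix-related genes were named by their size of difference and are not a list. Of the matrix lists, none of 21 basement membrane and integrin genes and none of 15 matrix metalloproteinase and inhibitor genes tested was outside, against 3.32% above and 0.396% below over all genes. For lists of this size that is near the background. After median ratio rescaling and under quantile normalization 1 matrix metalloproteinase or inhibitor gene was outside above. Under quantile normalization 1 basement membrane or integrin gene was outside below.

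The upstream sequences of the 3 genes furthest from the nearer population are shown as examples of genes that stood apart together. They are the 250 bases before the annotated start (RefSeq, GRCm38.p6, gene strand, 5′ to 3′), at chr19:11536544-11536793 for Ms4a4d (plus), chr1:169747643-169747892 for Rgs4 (minus) and chr13:89742513-89742762 for Vcan (minus). Capitals mark matches on either strand to 5 motifs. They are the CHR element written as TTTGAA, the box spelled CCAAT, the motif of AP-1 factors spelled TGANTCA, the motif of TEAD factors spelled GGAATG, and the E-box of ZEB and SNAI factors spelled CAGGTG.
Ms4a4d: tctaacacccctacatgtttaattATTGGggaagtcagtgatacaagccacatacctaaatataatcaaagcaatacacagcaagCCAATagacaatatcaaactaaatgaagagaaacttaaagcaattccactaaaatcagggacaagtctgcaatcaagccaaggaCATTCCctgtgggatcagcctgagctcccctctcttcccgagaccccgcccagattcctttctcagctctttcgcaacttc
Rgs4: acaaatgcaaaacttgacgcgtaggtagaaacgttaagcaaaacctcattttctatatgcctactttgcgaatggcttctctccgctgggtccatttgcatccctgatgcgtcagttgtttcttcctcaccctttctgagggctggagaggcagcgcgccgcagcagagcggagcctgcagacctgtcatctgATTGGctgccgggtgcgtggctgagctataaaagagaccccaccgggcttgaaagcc
Vcan: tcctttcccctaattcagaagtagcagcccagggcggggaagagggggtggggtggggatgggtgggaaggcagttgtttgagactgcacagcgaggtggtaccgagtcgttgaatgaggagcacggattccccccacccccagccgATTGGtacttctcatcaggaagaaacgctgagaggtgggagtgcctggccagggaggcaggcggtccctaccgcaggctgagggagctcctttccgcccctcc
Each holds a CCAAT box, as did 34.5% of all 27025 promoters, and Ms4a4d holds a GGAATG, as did 12.6%. No AP-1, CHR or E-box letters are in these windows, and 6.87%, 16.3% and 17.1% of all promoters held them. A match describes the letters only. Shares over all outside genes are not given, since 281 of the 420 above and 33 of the 50 below had a promoter entry under their symbol, fewer than 80%.

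**Figure D2:**
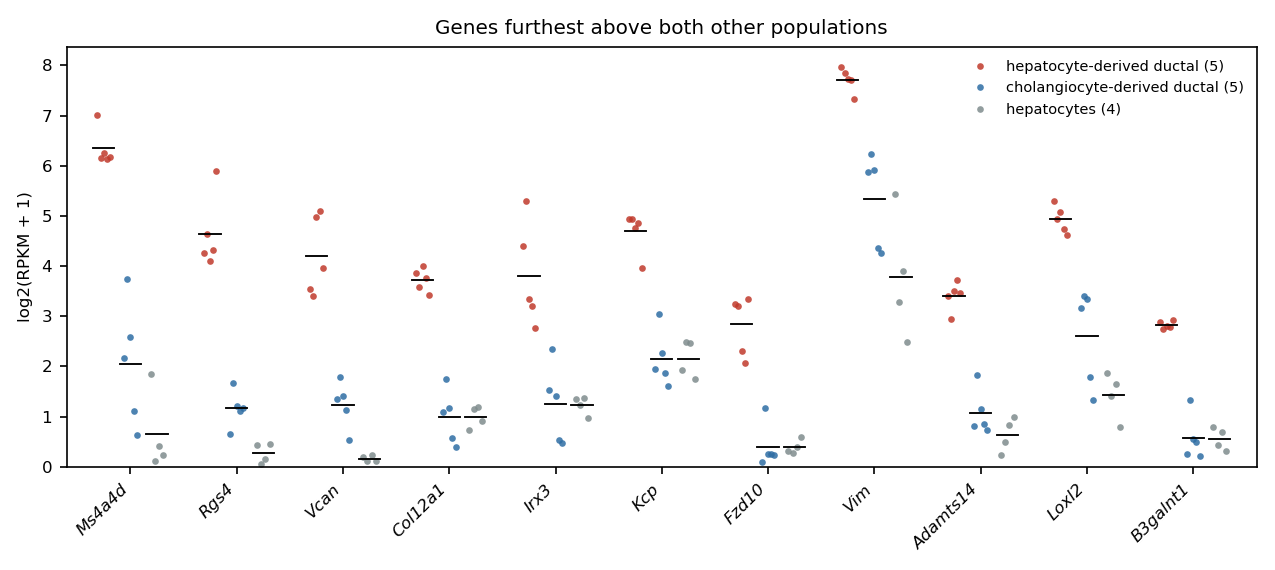
log2(RPKM + 1) in each library for 11 of the outside genes furthest above the nearer population, with a point per library and a bar at the group mean (5, 5 and 4 libraries). Every hepatocyte-derived point lies above all points of the other groups for each gene, with cholangiocyte-derived library 219 often the nearest.

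A transcription factor and a glycosyltransferase were also among the genes furthest above. Irx3, an Iroquois homeobox factor, had 20.2, 38.3, 9.12, 8.21 and 5.77 RPKM against 1.89, 4.07, 1.66, 0.44 and 0.38 and 1.55, 1.36, 1.57 and 0.97. Its hepatocyte-derived values spread over a wide range and its call was lost under quantile normalization (limma adjusted p = 0.00471 as deposited, 0.0844 then). B3galnt1, a glycosyltransferase of globoside synthesis, was by contrast uniform at 6.43, 5.69, 5.98, 5.9 and 6.6 RPKM, against 0.2, 1.53, 0.47, 0.41 and 0.16 and 0.74, 0.35, 0.62 and 0.25 (limma adjusted p = 1.42e-05).

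Some secreted signals and receptors of the BMP, activin and Wnt pathways were also outside. Bmp4, a BMP ligand, had 23, 18.8, 17.4, 18.9 and 17.8 RPKM against 2.83, 7.03, 4.14, 3.56 and 2.95 and 2.22, 2.96, 3.6 and 2.03, a ratio of means of 4.68 and 7.1 (limma adjusted p = 2.12e-05). Bmp4 is overlapped on the opposite strand by Gm15217, and the kit does not mark strand. Kcp, a secreted chordin-like modulator of BMP signals, had 29.7, 29.6, 25.9, 28 and 14.6 RPKM against 2.88, 7.28, 3.83, 2.63 and 2.06 and 2.8, 4.62, 4.54 and 2.35, with library 611 lowest of its group and still above all others (limma adjusted p = 9.84e-05). Inhba, the activin A subunit, had 25.6, 34.3, 22.6, 33.3 and 45.3 against 8.56, 14.6, 14.3, 4.84 and 16.1 and 1.33, 4.72, 4.66 and 6.8 (limma adjusted p = 0.0243), and 7 of 27 alternative settings ended the call. Tgfbr1, the type I TGF-beta receptor, was at 32.7 to 39.6 RPKM against 22.1 to 30.8 and 11.3 to 13, a small difference of 0.39 ± 0.09 to cholangiocyte-derived cells. It was called for a difference from both populations (limma adjusted p = 0.0205). That call was lost without the 3 libraries high in transcripts of other cells (0.0735), without hepatocyte-derived library 225 (0.0663) or 248 (0.0658) and without both libraries numbered 220 (0.0913). Smad4, the shared SMAD, and the activin inhibitor Fst exceeded all other libraries but were not called (limma adjusted p = 0.122 and 0.39). Of 25 TGF-beta and BMP genes tested, 5 were above every other library and 3 were outside (12%, against 3.32% of all genes), or 1 without hepatocyte-derived library 248 or without both libraries numbered 220. The list's median difference was -0.07 to cholangiocyte-derived cells and 1.46 to hepatocytes, against -0.03 and 0.67 over all genes.

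Fzd10, a Frizzled receptor, had 8.54, 8.28, 3.92, 3.19 and 9.17 RPKM against 0.07, 1.24, 0.19, 0.2 and 0.18 and 0.25, 0.21, 0.32 and 0.5. Its ratio to cholangiocyte-derived cells was 17.6, or 41.4 without library 219, the one with a level near 1 RPKM (limma adjusted p = 1.24e-04). Rnf43, a ubiquitin ligase that removes Frizzled receptors, was at 13.6 to 20.5 RPKM against 7.44 to 13.5 and 6.74 to 7.42. Its call was lost after median ratio rescaling and under quantile normalization (limma adjusted p = 0.0105, 0.469 and 0.801) and without the 3 libraries high in transcripts of other cells (0.0659). Rnf43 was the single outside gene of 16 Wnt genes tested (6.25%, against 3.32% of all genes), since Fzd10 was not in that list. The list's median difference was -0.40 to cholangiocyte-derived cells and 1.07 to hepatocytes, against -0.03 and 0.67 over all genes. Summed over the 16 genes, hepatocyte-derived libraries held 110 to 128 RPKM, cholangiocyte-derived libraries 197 to 210 and hepatocytes 50.6 to 61.4.

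Of 13 genes of the list for epithelial-mesenchymal transition, 3 were outside above (23.1%, against 3.32% of all genes), 8 were higher and 2, Mmp2 and Mmp7, lower than the average of both groups (54.3% and 13.8% of all genes). The list's median difference was -0.04 to cholangiocyte-derived cells and 1.89 to hepatocytes, against -0.03 and 0.67 over all genes, and Snai1, Twist1 and Twist2 did not pass the filter. Vim, the intermediate filament vimentin, had 250.1, 229.5, 210.1, 207 and 159.9 RPKM against 57.8, 74, 59.5, 19.4 and 18.2 and 42.5, 8.74, 14 and 4.59, with a clear gap above cholangiocyte-derived library 219 (limma adjusted p = 0.0114). Zeb1, a repressor of epithelial genes, had 13.1, 11.3, 12.1, 13.3 and 13 against 3.32, 4.87, 3.63, 2.71 and 2.66 and 3.95, 4.77, 5.08 and 5.28. Its hepatocyte-derived values were narrowly grouped, and it was called as deposited (limma adjusted p = 5.22e-05) but not under quantile normalization (0.183). Cdh2, N-cadherin, which hepatocytes also express, had 60.1, 52.6, 65.3, 62.1 and 60.9 RPKM against 14.2, 21.3, 13.1, 9.24 and 8.02 and 16.4, 28.6, 32.1 and 27.6 (limma adjusted p = 0.00686). Hepatocytes were the nearer group for Cdh2, which was not called after median ratio rescaling (0.687) or with the sample number as a block (0.0542). No member of this list was below every other library, and E-cadherin (Cdh1), the epithelial cadherin, was within the range of the others, 0.76 above their average.

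Of 20 junction and keratin genes tested, 4 were outside above (20%, against 3.32% of all genes). The count was 2 with the sample number as a block, without hepatocyte-derived library 219, and without both libraries numbered 219 or both numbered 220. Krt20, a keratin of gut and urothelial epithelium, had 6.51, 5.6, 5.63, 4.94 and 3.19 RPKM against 0.42, 1.01, 0.39, 0.72 and 0.48 and 0.2, 0.16, 0.66 and 0.04, the widest gap of the list (limma adjusted p = 1.94e-05). Desmosomal genes made up the rest. Dsc2, a desmocollin, had 130.1, 116, 109.9, 106 and 136 RPKM against 51.7, 75.2, 57.8, 53.5 and 51.1 and 20.9, 31.7, 32.2 and 42 (limma adjusted p = 0.00104). Dsg2, its desmoglein partner, was at 486 to 563 RPKM against 362 to 443 and 69 to 98.7 (limma adjusted p = 0.0271, 0.0966 with the block, lost in 11 of 27 settings). Pkp2, a desmosomal plaque protein, was at 35.8 to 43.9 against 29.2 to 32.1 and 26.2 to 33.7 (limma adjusted p = 0.0177, 0.0754 with the block), and after median ratio rescaling its difference to the nearer population turned to -0.40. The simple keratins Krt8 and Krt18 were within the range of the other libraries.

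Among abundant transcripts outside, Tm4sf4, a 4-pass membrane protein of liver and gut, had 2263, 1972, 2114, 2138 and 2345 RPKM against 1055, 1488, 1092, 1209 and 1195 and 375, 552, 532 and 428. Every hepatocyte-derived value was above the highest cholangiocyte-derived one, library 219, and the ratios were 1.79 and 4.59 (limma adjusted p = 0.00113). Mfge8, a secreted bridge to phosphatidylserine on dying cells, was at 613 to 789 RPKM against 365 to 487 and 175 to 311. Lgals1, galectin 1, was at 445 to 614 against 98.4 to 260.1 and 80.7 to 191 (limma adjusted p = 0.00376 and 7.65e-04). The small heat shock protein Hspb1 was at 59.1 to 83.7 RPKM against 36.1 to 42.9 and 10.9 to 16.6 (limma adjusted p = 6.06e-04) and Hsp90aa1, a cytosolic chaperone, at 37.9 to 51.9 against 29.5 to 32.9 and 16.7 to 24.5 (limma adjusted p = 0.0396, 0.12 with the block and 0.988 after median ratio rescaling, lost in 14 of 27 settings). These were the 2 outside genes of 13 heat shock genes tested (15.4%, against 3.32% of all genes), or 1 after median ratio rescaling.

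Several other lists had 1 or 2 members outside above (3.32% of all genes were). The count was 1 of 2 pancreatic and endocrine genes tested, from a list of 18, and 1 of 8 mucin, trefoil peptide and secretory genes, from a list of 16. It was 1 of 22 chemokine and inflammation genes and 1 of 17 MHC class II and interferon genes. Ncam1, a neural adhesion molecule also reported on reactive ductules, had 4.81, 3.67, 9.52, 10.1 and 7.05 RPKM against 1.38, 2.41, 1.59, 0.79 and 0.65, and was listed at 0 to 0.1 in hepatocytes (limma adjusted p = 5.60e-04). Spdef, an ETS factor of secretory cells, was low but uniform at 1.75 to 2.12 RPKM against 0.15 to 0.31 and 0.29 to 0.71 (limma adjusted p = 1.56e-04), a difference that turned to -0.17 under quantile normalization. Ncam1 and Spdef passed the filter on low values only through the hepatocyte-derived libraries. The filter thus shaped the counts of their lists, the pancreatic and endocrine and the mucin lists, and no conclusion is drawn from those 2 counts. Of 5 fetal liver and imprinted growth genes tested, Igf2bp2 and Cdkn1c were outside above (40%). None was outside above after median ratio rescaling or under quantile normalization. Igf2bp2, a fetal RNA-binding protein, was at 1.74 to 3.22 RPKM against 0.43 to 1.08 and 0.42 to 1.39 (limma adjusted p = 0.00578). Its call was lost after median ratio rescaling (limma adjusted p = 0.245), and quantile normalization turned its difference to the nearer population to -0.11. The imprinted cell cycle inhibitor Cdkn1c was at 4.87 to 7.3 against 1.98 to 4.32 and 0.44 to 1.91 (limma adjusted p = 0.0425), a call lost in 15 of 27 settings. The same held for the monocyte chemokine Ccl7 (12.3 to 45.5 RPKM against 7.49 to 12.1 and 2.66 to 5.5, 15 settings) and the interferon-induced Ifit2 (9.89 to 13.4 against 6.13 to 9.37 and 1.3 to 3.35, 17 settings), at limma adjusted p = 0.0406 and just under the threshold of 0.05. Afp, the fetal albumin relative, was not outside, at 2.41 to 4.18 RPKM against 0.99 to 5.81 and 2.19 to 5.02.

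Cholangiocyte-derived library 219 was the nearest of the 9 other libraries for 275 of the 420 genes above (65.5%). Each cholangiocyte-derived library was placed between the mean of its 4 companions (0%) and the hepatocyte-derived mean (100%) for each outside gene. Library 219 lay at a median of 25.6% of the way over the 420 genes (quartiles 17.2 and 37.8%), and was above its companions' mean for 400 of them. The other 4 libraries had medians of -11.2 to -3.76%. For the 50 genes below, library 219 was at a median of 15.6% (quartiles 0.498 and 29.5%) and library 611 at 5.06% (quartiles -17.2 and 53.5%). On that side cholangiocyte-derived library 611 was the nearest of the 9 for 11 genes (22%), hepatocyte library 118 for 9 (18%) and cholangiocyte-derived library 219 for 5 (10%). Leaving out cholangiocyte-derived library 219 gave 955 genes above all other libraries in place of 724. Leaving out both libraries numbered 219 gave 377 outside genes above and 38 below, of which 333 and 33 were among the 420 and the 50. Cholangiocyte-derived library 219 carried less macrophage RNA than its companions (64.7 RPKM against 219 to 424), as did hepatocyte-derived library 219 (55.5 against 152 to 180). Deviations of these libraries from their group means correlated at 0.797, the highest value for any shared number. The part of either fact in these positions was not tested.

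**Figure D3:**
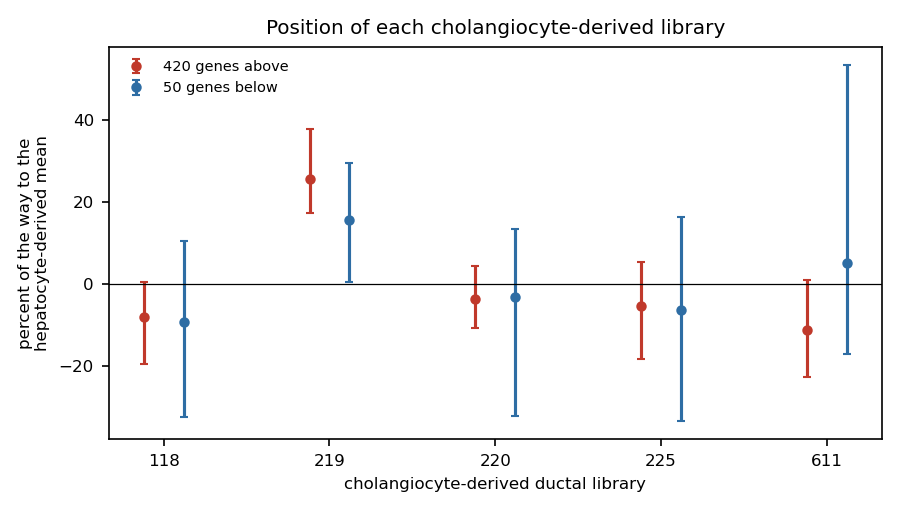
Position of each cholangiocyte-derived ductal library (horizontal) between the mean of the other 4 (0%) and the hepatocyte-derived mean (100%), as the median and quartiles over outside genes above (red) and below (blue). Library 219 stands at 25.6% for genes above, while the other 4 medians for genes above are under 0.

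The gene furthest below was a cyclin. Ccnb2, cyclin B2, which drives mitotic entry (NM_007630, mm9 chr9:70255496-70269361, minus strand), had 1.45, 3.79, 1.37, 1.31 and 2.54 RPKM in hepatocyte-derived cells, 12.6, 11.2, 18.2, 8.39 and 6.39 in cholangiocyte-derived cells and 9.87, 9.19, 13.7 and 17.5 in hepatocytes. The highest hepatocyte-derived library, 220, was below the lowest of the other 9, and cholangiocyte-derived and hepatocyte means were 5.43 and 6.01 times the hepatocyte-derived mean (log2 differences -1.99 ± 0.27 and -2.15 ± 0.29, limma adjusted p = 4.65e-04). Cdca3, which promotes mitotic entry by the destruction of Wee1, had 2.37, 4.2, 1.66, 1.84 and 1.72 RPKM against 16.6, 12.2, 19.2, 8.12 and 4.94 and 11.6, 12.2, 18.4 and 22.2 (limma adjusted p = 0.0021).

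Both the activator and the E2 enzyme of the anaphase-promoting complex were outside too. Cdc20, its activator, had 2.62, 3.9, 2.11, 2.45 and 3.48 RPKM against 12.8, 9.55, 17.8, 6.86 and 7.04 and 7.03, 6.9, 9.34 and 27.8 (limma adjusted p = 0.0164). Its call was lost without the 3 libraries high in transcripts of other cells (0.102), without both libraries numbered 219 (0.0682) and without both numbered 220 (0.0577), and Elovl1 overlaps it on the opposite strand. Ube2c, the E2 enzyme, had 1.4, 3.4, 1.07, 1.25 and 2.11 RPKM against 10, 8.92, 13.2, 4.21 and 4.26 and 5.2, 4.25, 5.89 and 17.9 (limma adjusted p = 0.0352), a call lost in 12 of 27 settings. Cdk1, the mitotic kinase, Plk1 and Ccnb1 were below every other library without a call (limma adjusted p = 0.0688, 0.0801 and 0.114), and Cdk1 was called with the block (0.0296). In each of these genes hepatocyte library 611 was the highest of the hepatocytes.

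Of 18 G2/M and mitosis genes tested, 17 were lower than the average of both groups by limma (13.8% of all genes were), and 10 when a level of 5 RPKM in 4 libraries was required, which left fewer genes to test. The remaining gene, Nusap1, had a limma adjusted p of 0.0509. The list's median difference was -1.53 to cholangiocyte-derived cells and -0.85 to hepatocytes, against -0.03 and 0.67 over all genes. By the stricter criteria 6 were below all other libraries (0.633% of all genes) and 3 were outside (0.396%), a number that was 8 after median ratio rescaling, 9 under quantile normalization and 1 without both libraries numbered 219. Without the 3 libraries high in transcripts of other cells 2 were outside, of which 1 was among the 3, and 17 were again lower than the average. Summed over the 18 genes, hepatocyte-derived libraries held 22.4 to 49.6 RPKM, cholangiocyte-derived libraries 70.4 to 214 and hepatocytes 59.8 to 177, with no overlap. Cholangiocyte-derived libraries 220 and 118, the highest of their group in macrophage transcripts, were also highest in this sum (214 and 166 RPKM), and library 219, the lowest in macrophage transcripts, came next (144). The part of other cells in this sum was not tested. Further division genes outside below, named after their values were seen, were Nek2, a centrosomal kinase (0.73 to 1.26 RPKM in hepatocyte-derived cells), Esco2, a cohesin acetyltransferase (0.35 to 1.1), and E2f8, an atypical E2F factor (0.22 to 0.53).

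Of 22 tested G1/S and replication genes, 1 was outside below (0.396% of all genes were), and 8 were higher and 2 lower than the average of both groups, against 54.3% and 13.8% of all genes. The median difference was -0.79 to cholangiocyte-derived cells and 0.94 to hepatocytes. The outside member was E2f1, a transcription factor of S-phase entry, at 2.44, 2.51, 2.09, 1.94 and 2.09 RPKM against 5.31, 6.64, 6.61, 5.39 and 3.45 and 4.94, 4.45, 4.92 and 2.94 (limma adjusted p = 0.019). The call was lost in 5 of 27 settings, among them without the 3 libraries high in transcripts of other cells (0.0783) and without hepatocyte-derived library 225 or 248 or hepatocyte library 225 or 248 (0.0506 to 0.0642). The values were uniform in hepatocyte-derived cells, and hepatocyte library 611 and cholangiocyte-derived library 611 were nearest to them.

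Upstream sequences of the 3 outside mitotic genes are shown because the CHR element and CCAAT box are known features of promoters of late cell cycle genes. They are taken as before, at chr9:70421555-70421804 for Ccnb2 (minus strand), chr4:118437344-118437593 for Cdc20 (minus) and chr2:164769679-164769928 for Ube2c (plus), with matches to the same 5 motifs in capitals.
Ccnb2: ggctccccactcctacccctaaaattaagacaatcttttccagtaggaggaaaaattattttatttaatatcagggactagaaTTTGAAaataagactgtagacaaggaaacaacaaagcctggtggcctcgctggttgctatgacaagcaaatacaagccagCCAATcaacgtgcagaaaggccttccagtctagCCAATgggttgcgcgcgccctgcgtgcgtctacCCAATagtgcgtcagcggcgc
Cdc20: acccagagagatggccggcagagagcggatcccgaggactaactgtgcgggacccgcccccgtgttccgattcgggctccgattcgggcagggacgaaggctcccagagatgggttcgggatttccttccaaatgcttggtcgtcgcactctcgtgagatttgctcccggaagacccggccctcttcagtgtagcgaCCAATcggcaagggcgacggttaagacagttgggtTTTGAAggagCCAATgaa
Ube2c: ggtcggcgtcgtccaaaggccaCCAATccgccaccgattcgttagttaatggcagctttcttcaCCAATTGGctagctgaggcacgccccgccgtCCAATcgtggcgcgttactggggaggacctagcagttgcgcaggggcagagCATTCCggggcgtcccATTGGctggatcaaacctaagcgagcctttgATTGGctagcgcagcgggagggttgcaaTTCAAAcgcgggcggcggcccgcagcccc
TTTGAA occurs 1 time in each, starting 167, 18 and 29 bases before the start in this order, and 16.3% of all promoters hold it in a window of this length. CCAAT occurs 3, 2 and 6 times, and 2 of the matches in Ube2c overlap on opposite strands. Ube2c also holds a GGAATG. These letters are a description of the window and not evidence of binding.

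**Figure D4:**
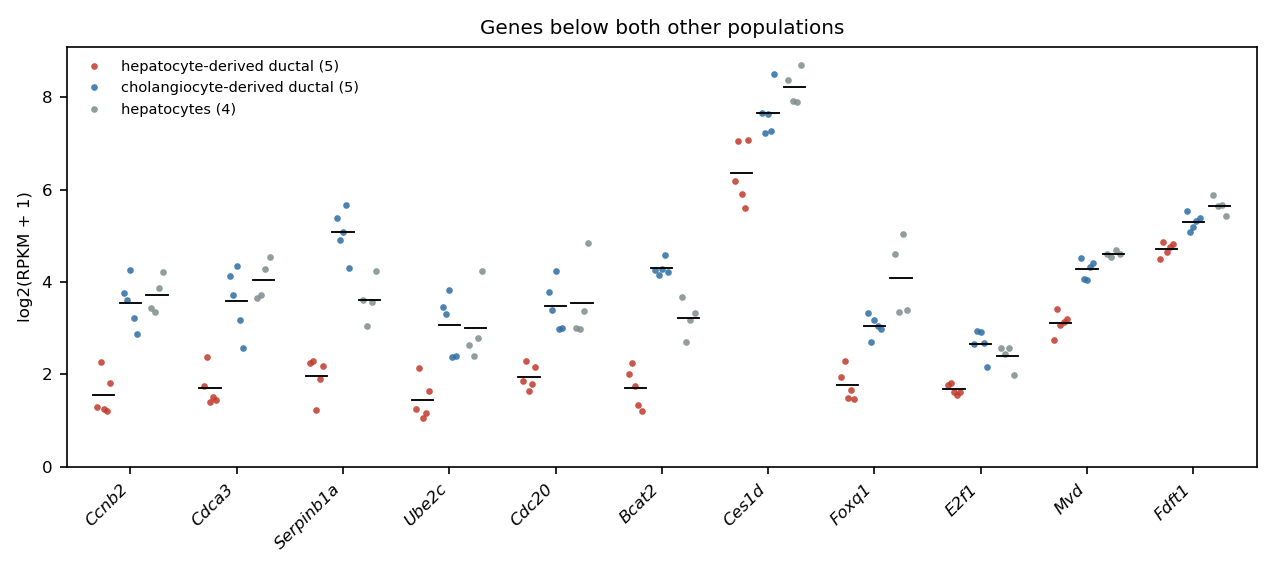
log2(RPKM + 1) in each library for the 8 outside genes furthest below the nearer population and for E2f1, Mvd and Fdft1, with a point per library and a bar at the group mean. Hepatocyte-derived points lie under all other points for every gene shown.

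**Figure D5:**
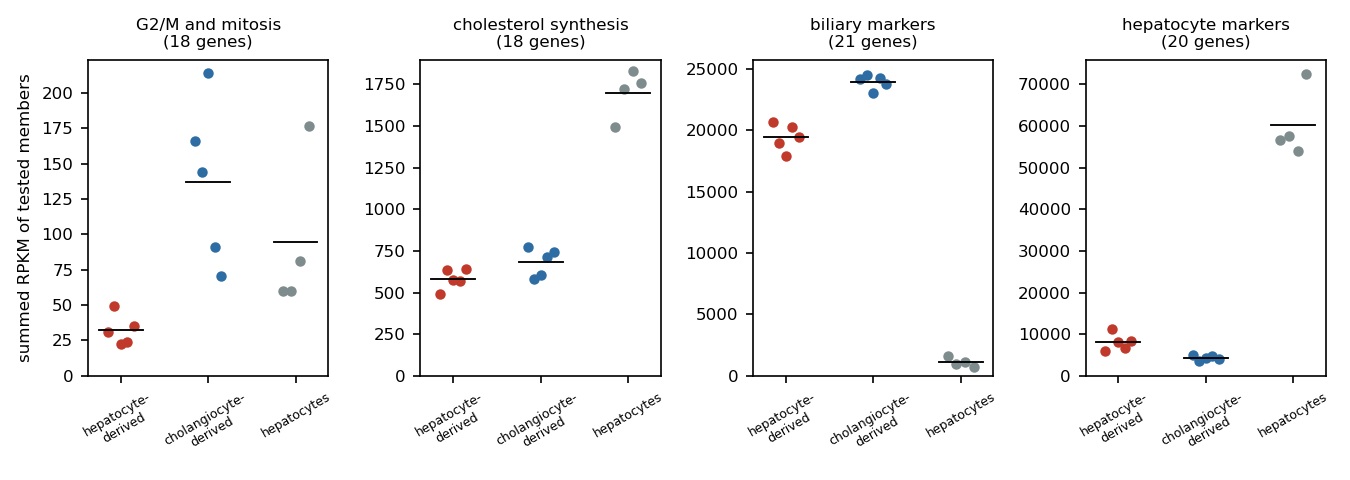
Summed RPKM of tested members of 4 gene lists in each library, with bars at the group means. Hepatocyte-derived libraries lie under both other groups for the mitotic list, overlap cholangiocyte-derived ones for cholesterol synthesis, and lie between the groups for biliary and hepatocyte markers.

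Cholesterol synthesis genes were lower than the average of both groups for 16 of 18 members tested (13.8% of all genes were), with a median difference of -0.34 to cholangiocyte-derived cells and -1.49 to hepatocytes, against -0.03 and 0.67 over all genes. Mvd, which makes isopentenyl diphosphate, had 5.68, 9.64, 7.44, 7.75 and 8.24 RPKM against 21.9, 15.8, 15.6, 19.1 and 20.3 and 23.5, 22.2, 24.9 and 23.4, and no hepatocyte-derived library reached the others (limma adjusted p = 5.09e-05). Fdft1, squalene synthase, had 21.6, 28.2, 24, 26.1 and 27.4 RPKM against 45.4, 33, 35.5, 38.8 and 41.1 and 57.9, 49, 49.6 and 41.9 (limma adjusted p = 0.00409), and Ctsb overlaps it on the opposite strand. Pmvk, phosphomevalonate kinase, was below all others without a call (22.5 to 24.6 RPKM against 25.7 to 30.1 and 62.1 to 78.8, limma adjusted p = 0.0896). The count of 2 outside genes (11.1%, against 0.396% of all genes) was 6 without cholangiocyte-derived library 219, with or without its hepatocyte-derived namesake, and 4 without hepatocyte-derived library 220 or 611 or without both libraries numbered 220. Srebf2, a regulator of this pathway, was higher than the average of both groups (limma adjusted p = 0.0379). Summed levels were 491 to 640.4 RPKM in hepatocyte-derived, 584 to 772 in cholangiocyte-derived and 1493 to 1831 in hepatocyte libraries.

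Other genes below came from no single list. Serpinb1a, an inhibitor of neutrophil proteases (NM_025429, mm9 chr13:32933961-32943054, minus strand), had 3.76, 3.92, 1.34, 2.72 and 3.55 RPKM against 41.1, 29.3, 33, 49.8 and 18.8 and 11.2, 7.24, 10.9 and 17.8, the widest difference to cholangiocyte-derived cells among the 8 genes furthest below (-3.10 ± 0.28). Its limma adjusted p for a difference from both populations was 0.00381, set by the smaller difference to hepatocytes (-1.64). Bcat2, the mitochondrial aminotransferase of branched-chain amino acids, had 3.04, 3.76, 2.37, 1.52 and 1.3 RPKM against 18.2, 16.9, 18.4, 22.9 and 17.6 and 11.8, 5.48, 8.1 and 9.1. Hepatocytes were the nearer group for both genes (limma adjusted p = 7.69e-04 for Bcat2). Ces1d, a carboxylesterase with near-identical paralogs among which reads could be divided, had 72.3, 131, 59, 47.3 and 133 RPKM against 202, 149, 199, 152 and 360.0 and 332, 243, 239 and 416. Its hepatocyte-derived libraries 220 and 611 came close to cholangiocyte-derived library 219, and the call (limma adjusted p = 0.028) was lost in 8 of 27 settings. Foxq1, a forkhead factor, had 2.83, 3.87, 1.79, 2.19 and 1.76 RPKM against 9.13, 5.55, 8, 7.3 and 6.87 and 23.2, 9.25, 31.9 and 9.51 (limma adjusted p = 0.0199, lost in 7 settings). Cpox, the haem synthesis enzyme coproporphyrinogen oxidase, was at 9.38 to 13.7 RPKM against 13.8 to 17.5 and 19.1 to 22.4 (limma adjusted p = 0.0213, lost in 6 settings). Il4ra, the interleukin 4 receptor, and P2ry2, a nucleotide receptor, were also outside below, at 9.04 to 9.97 and 1.45 to 3.16 RPKM, and were named after their values were seen.

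None of 21 biliary and none of 20 hepatocyte markers tested was outside in either direction, with 13 biliary markers higher and 14 hepatocyte markers lower than the average of both groups (54.3% and 13.8% of all genes). At 3.32% above and 0.396% below over all genes, none of about 20 is near the background. None of 28 ribosomal protein, 27 respiratory chain, 23 cilium and 20 immediate early genes, and none of 20 liver lineage transcription factors, was outside, which is also near the background for lists of this size. Of 11 macrophage, 14 endothelial and 3 neutrophil markers tested, none was outside, and the most abundant macrophage marker, Lyz2, a lysozyme, was at 0.7, 60.4, 47, 58.1 and 61.8 RPKM in hepatocyte-derived libraries. Mesothelial markers were at 1.63 to 5.25 RPKM in hepatocyte-derived libraries against 92.4 to 159 in cholangiocyte-derived ones, and their part in these results was not tested.

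At the edge of the range criterion, the genes with the narrowest gaps were Ash2l, with 36.2 to 39.5 RPKM against 31 to 36.2 and 12.1 to 14.4, and Rev1. Just short of it were Brpf3 and Foxk1, whose lowest hepatocyte-derived values, 13.5 and 19.6, equalled the highest cholangiocyte-derived ones. On the lower side Cpox and Arpc5l were just inside, and Spc24 and Coq2 just short of it, with highest hepatocyte-derived values of 2.58 and 27.5 RPKM that equalled or barely exceeded the lowest cholangiocyte-derived ones.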

How the data were processed

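RNA-seq of 14 libraries (5 hepatocyte-derived ductal, 5 cholangiocyte-derived ductal, 4 hepatocyte) was analysed from the RPKM values that the authors deposited, 1 column per library. Per the submitters' processing notes, CASAVA and Bowtie 0.12.7 were used with mouse build mm9. Per the labels' protocols, libraries came from 75 to 200 ng of RNA and a kit that does not mark strand. The counting program is not given in the sources used here. The table holds no counts, so no count model was used, and depth was estimated only roughly from the steps between low values.

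For each of 20377 symbols the transcript with the highest mean over all libraries was kept, and 12638 symbols with at least 1 RPKM in 4 libraries were tested. Hepatocyte-derived libraries alone could meet this filter. Among the named genes, Adamts14, B3galnt1, Fzd10, Krt20, Ncam1 and Spdef met it only through them, so list counts with such genes were shaped by the filter. limma 3.58.1 (R 4.3.3) was fitted to log2(RPKM + 1) with 3 group means, all 14 libraries and a variance trend. Benjamini-Hochberg adjustment ran over all tested symbols with a threshold of 0.05, and tests were two-sided. The statistical script was tested on simulated data. Python 3.11.15 drew the figures.

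Named genes were, among outside genes averaging 5 RPKM or more (above: in hepatocyte-derived cells; below: in both other groups), the 12 above and 8 below furthest from the nearer group, the 5 most abundant above, up to 4 members per gene list outside the range, fixed check genes, the most abundant marker of each other cell type, and 2 genes on each side of each range edge. Other names were chosen after their values were seen. Some genes that met this rule are not reported here. The members, the 43 gene lists and the tests were chosen with earlier results of these data known.

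Whether equal library numbers pair samples was checked from the data, since the labels do not say so. The numbers are those of the column names, and the columns numbered 220, a number found in no sample title, were placed by their group name. Deviations from the group means correlated at 0.797, 0.428, 0.212 and 0.424 for the 4 numbers shared by both ductal groups. Between hepatocyte-derived cells and hepatocytes the 3 shared numbers gave 0.129, 0.0208 and 0.193. Between cholangiocyte-derived cells and hepatocytes they gave 0.512, 0.133 and 0.225. The main fit held no pairing term, so its counts and p-values ignore these correlations. The number entered only as a block in an alternative fit. Alternatives were other pseudocounts, filters and scalings, array weights, the number as a block, and leaving out libraries. Leaving out both libraries numbered 219 or 220 and a term for the style of the column names were added after the data were seen.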

Additional observations from a re-analysis of the deposited data

Results flagged for a closer look

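Of 174 sets of libraries examined, 58 named genes in 3 groups, 9 held 1 library far from the rest by Dixon's criterion, which chance meets in about 1 of 20. In hepatocyte-derived cells, Ms4a4d was at 128.85 RPKM in library 219 against 68.83 to 75.23 in the others. Kcp was at 14.59 in library 611 (25.93 to 29.73), Rgs5 at 952.75 in library 220 (1453.26 to 1613.15) and Dsg2 at 486.14 in library 248 (542.6 to 562.61). In cholangiocyte-derived cells, Fzd10 was at 1.24 RPKM in library 219 (0.07 to 0.2), Bcat2 at 22.94 in library 225 (16.87 to 18.36) and Tgfbr1 at 22.12 in library 611 (28.03 to 30.83). In hepatocytes, library 118 was lowest for Pmvk, at 62.08 RPKM (77.53 to 78.8), and for Spdef, at 0.29 (0.68 to 0.71).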

How the results depend on the processing

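Median ratio rescaling gave 3276 genes higher and 3853 lower than the average of both groups, 475 above and 270 below all other libraries, and 259 and 131 outside genes. Quantile normalization gave 3565 higher and 3010 lower, 266 below all others and 172 outside below. Array weights gave 667 and 78 outside genes, and a gap of at least 2-fold left 22 above and 0 below. Below all other libraries were 132 genes without the 3 libraries high in transcripts of other cells and 144 without both libraries numbered 220. Leaving out 1 library at a time gave 81 (without hepatocyte-derived library 225) to 137 genes (without 220) below all others and 35 (without hepatocyte-derived library 248) to 77 outside below (without hepatocyte library 118). The cause was not tested. Differences to the nearer population turned to -0.11 (Igf2bp2), -0.073 (Dgat1) and -0.17 (Spdef) under quantile normalization and to -0.40 (Pkp2), -0.28 (Dgat1) and -0.25 (Cp) after median ratio rescaling, where the difference of Dgat1 to the average was -0.016.

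With the sample number as a block, 393 genes were outside above (364 of the 420) and 41 below (39 of the 50), and 6821 and 1731 genes were higher and lower than the average. The block ended the calls of Dsg2, Hsp90aa1, Cdh2 and Pkp2 and added Cdk1 and Cdh17 (limma adjusted p = 0.0326), and it changed no other named call. Of 46 named genes called, 25 kept the call in every setting run and 21 lost it in at least 1. Depth could only be estimated, so no counting error is given for low values.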
